A study of Mus musculus with 8 samples.

Results

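The contractile smooth muscle genes described here are Acta2, Actg2, Tagln, Cnn1, Myh11, Myl9, Des, Synpo2, Myocd and Srf, chosen by name for their known roles in the contractile apparatus or its control and read over all 8 libraries. They are 10 of the 31276 genes listed, and were chosen with earlier results of these data known. RNA was sequenced from C3H10T1/2, a mouse line of multipotent mesenchymal cells from C3H embryos, at passages 10 to 15. All 8 lines stably expressed a histone H3 transgene with a FLAG-HA tag, and 1 library was made per line. The wild-type H3.3 line (H3.3 WT) was the only one without a substitution at lysine 36. In the other lines that lysine, a site of histone methylation, was replaced by alanine (K36A), isoleucine (K36I), leucine (K36L), methionine (K36M) or arginine (K36R) on H3.3, or by methionine (K36M) or arginine (K36R) on H3.1. There was no wild-type H3.1 line and no line without a transgene, and the labels do not say whether a line was a clone or a pool of cells. The labels describe no removal of the cells' own histone H3 genes.

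Smooth muscle contracts when calcium activates myosin light-chain kinase, the kinase phosphorylates the regulatory light chain, and smooth muscle myosin pulls on filaments of smooth muscle actin. Most genes of this apparatus are switched on by serum response factor (SRF), which binds CArG boxes near their start sites. Its cofactor myocardin acts mainly in smooth and cardiac muscle, and the related factors MKL1 and MKL2 respond to the state of the actin cytoskeleton in many cell types. Several of the genes, Acta2 and Tagln among them, are also switched on in fibroblasts that become myofibroblasts, whereas Myh11 and Myocd mark mature smooth muscle more narrowly.

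RefSeq start sites were matched for 6 of the 10 genes, and the 250 bases before each start were searched on both strands for the CArG box, which has 6 A or T bases in its core. It was found in 1.47% of 32851 mouse promoters, and among the 6 in Srf (first letters 82 and 62 bases before the start) and Myl9 (161 bases before the start). A CArG-like match with 1 core base changed to C or G was found in 7.24% of promoters, and here in Myl9 (99 bases before the start) and Acta2 (84 and 34 bases before the start). The motif CATTCC, bound by TEAD factors, was found in 12.6% of promoters and in that of Acta2 alone among the 6. The sequences below show those of the regulator Srf, the regulated light chain Myl9 and the filament protein Synpo2, which carry matches of different number or none. They run 5′ to 3′ on the gene's strand (GRCm38.p6), stop before the first annotated exon, and have CArG and CArG-like matches in capitals.
Srf, chr17:46556176-46556412, minus strand: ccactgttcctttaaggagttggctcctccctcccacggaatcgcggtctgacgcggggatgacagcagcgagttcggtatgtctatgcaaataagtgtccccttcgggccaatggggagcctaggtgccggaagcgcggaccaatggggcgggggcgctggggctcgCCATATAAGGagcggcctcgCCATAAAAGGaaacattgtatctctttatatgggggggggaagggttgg
Myl9, chr2:156775214-156775419, plus strand: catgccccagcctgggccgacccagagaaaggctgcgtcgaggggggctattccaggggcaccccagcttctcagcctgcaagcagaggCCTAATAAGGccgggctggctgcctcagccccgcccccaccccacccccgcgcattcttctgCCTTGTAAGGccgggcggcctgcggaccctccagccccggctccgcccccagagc
Synpo2, chr3:123236150-123236399, minus strand: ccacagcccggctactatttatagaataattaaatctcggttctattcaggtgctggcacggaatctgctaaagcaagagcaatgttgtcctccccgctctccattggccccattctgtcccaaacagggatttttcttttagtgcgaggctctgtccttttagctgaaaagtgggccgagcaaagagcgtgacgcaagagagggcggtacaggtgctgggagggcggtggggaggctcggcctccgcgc
For Acta2 most of the window falls in an exon of another annotated transcript, so only its matches are shown, CCCTATATGG and CCTTGTTTGG. The windows of Synpo2, Des and Cnn1 held 0 CArG or CArG-like matches, which says only that these letters are not in that stretch.

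Depth, recovered from the deposited values, was 45448249 reads in H3.1 K36M, 53199065 in H3.1 K36R and between 61139941 and 68020958 in the H3.3 libraries. Levels are given as normalised reads, which are reads divided by a size factor of the library. Differences are on the deposited log2 scale, which compresses differences of genes with few reads. No transgene had a second library, so the 3 lines with K36M or K36I, substitutions described as inhibiting H3K36 methyltransferases, were compared as a class with the other 5 lines, and the 2 H3.1 lines with the 6 H3.3 lines. The split by class was known from earlier results of these data, so its p-values do not come from a blind grouping. Each test asks whether a difference exceeds the spread between lines, and n counts lines. In such bulk libraries a larger number of cells of a type and more RNA per cell cannot be told apart. Of the 10 genes, 8 passed the filter on low values and were tested among 14215 genes, and Cnn1 and Myocd were not.

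Actg2 and Synpo2 rose in the K36M and K36I lines, and none of the 8 tested genes fell. Actg2, the gamma actin of enteric smooth muscle, stood at 1817 ± 1074 normalised reads in the 3 lines (SD, n = 3) against 175.3 ± 119.8 in the others (SD, n = 5), a ratio of 10.4. Synpo2, also called myopodin, an actin-bundling protein of the Z-disc and of dense bodies, stood at 195.7 ± 87.36 (SD, n = 3) against 28.54 ± 11.57 (SD, n = 5), a ratio of 6.86. The other 6, among them Acta2, Tagln and Myl9, did not pass. Over all genes tested 6.45% rose and 6.82% fell (limma, adjusted p under 0.05). Synpo2 was tested only because of its level in the K36M and K36I lines, so the count of 2 is a description and is not read against those shares.

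**Figure D1:**
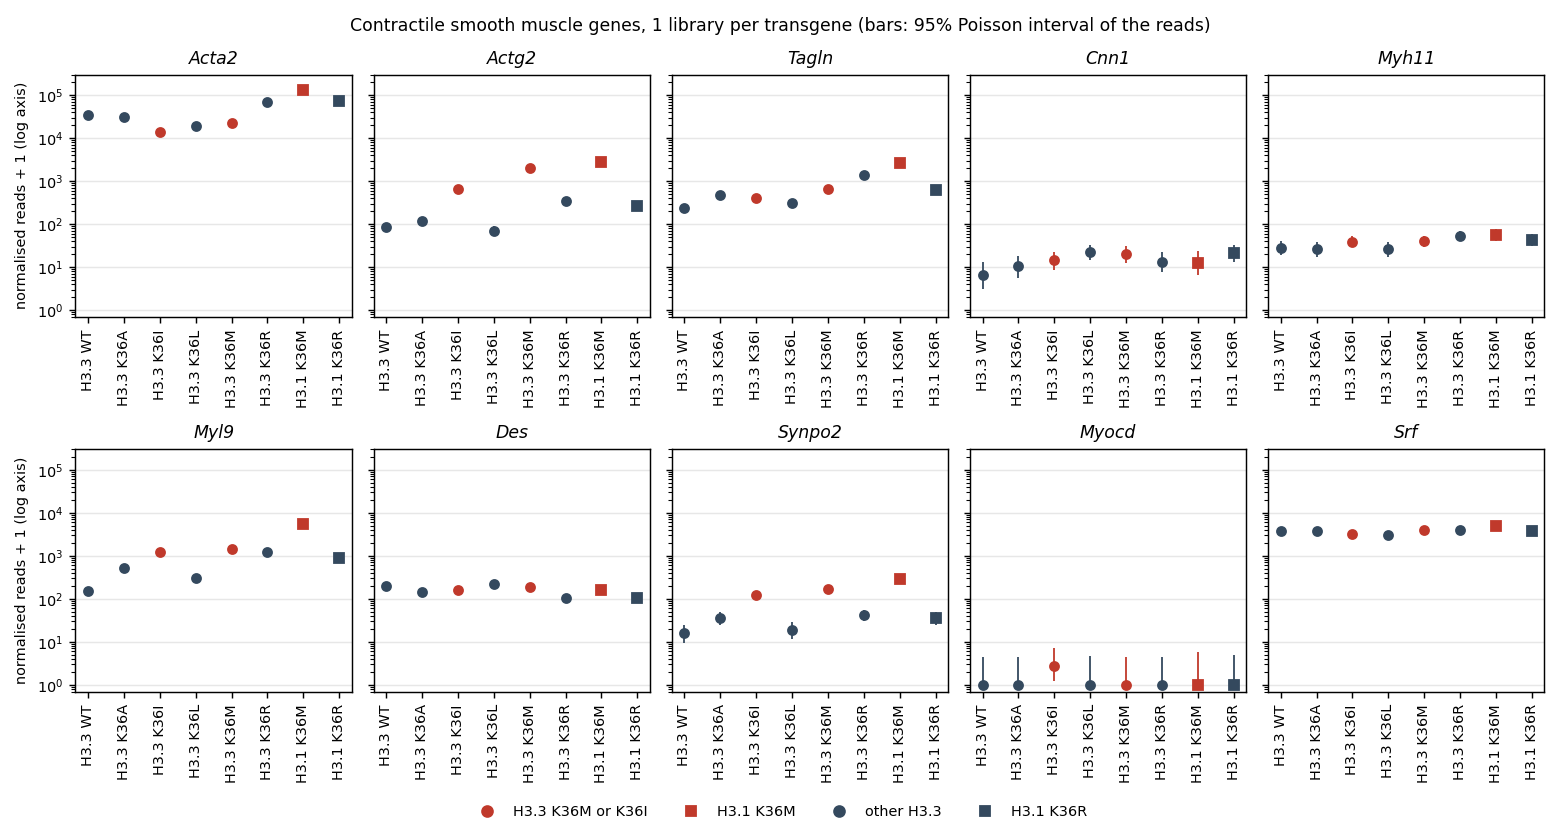
Normalised reads plus 1 (log axis) of the 10 genes in each of the 8 libraries, with 95% Poisson intervals of the reads; circles are H3.3 and squares H3.1 lines, and red marks K36M or K36I. Actg2 and Synpo2 have all 3 red points above all dark points, Acta2 does not, and Myocd is at 0 in 7 libraries.

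Of the smooth muscle actins, Acta2 was far more abundant than Actg2. Acta2 (alpha smooth muscle actin, chr19:34241090-34255590 on GRCm38, minus strand) was the highest of the 10 in every library. It had 34856 normalised reads with H3.3 WT, 31351 with K36A, 13661 with K36I, 19378 with K36L, 22120 with K36M and 67598 with K36R. On H3.1 it had 129877 with K36M and 74638 with K36R. The 2 H3.1 libraries and H3.3 K36R were the 3 highest, and H3.3 K36I the lowest, so the classes overlap. The class difference was -0.25 (SE 0.72, adjusted p = 0.869), with 55219 ± 64794 normalised reads in the K36M and K36I lines (SD, n = 3) and 45564 ± 24151 in the others (SD, n = 5). The log2 difference and these means point opposite ways, since H3.1 K36M alone lifts the mean of its class. Its direction rested on single libraries: it was 0.41 without H3.3 K36I, 0.06 without H3.3 K36M and -1.21 without H3.1 K36M (adjusted p = 0.783, 0.980 and 0.159).

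Actg2 (chr6:83512905-83536265, minus strand) had 85.5 normalised reads with H3.3 WT, 116.9 with K36A, 661 with K36I, 69.18 with K36L, 2007 with K36M and 336.2 with K36R. On H3.1 it had 2784 with K36M and 269 with K36R. All 3 K36M and K36I libraries lay above all the others, and the K36R libraries on both histones were the highest of the rest. The class difference was 2.69 (SE 0.47, adjusted p = 0.00793). Leaving out each library in turn moved it between 2.296 and 3.244, and over the 16 alternatives adjusted p ran from 0.00115 to 0.0393. Acta2 and Actg2 encode nearly the same protein, but of the 50-base stretches of their transcripts 0.326% in Acta2 and 0% in Actg2 occur in the transcripts of another gene.

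Within each library Actg2 was also set against Acta2, which leaves depth and scaling out of the value. There were 4.84, 9.07 and 2.14 Actg2 reads per 100 Acta2 reads in H3.3 K36I, H3.3 K36M and H3.1 K36M. In H3.3 WT, K36A, K36L, K36R and H3.1 K36R there were 0.245, 0.373, 0.357, 0.497 and 0.360. The classes do not overlap on this ratio, and the K36R lines, which had much Acta2 RNA, lay close to the other lines of their class. Myl9 per 100 Acta2 reads was 8.89, 6.42 and 4.25 in the same 3 lines and ran from 0.432 to 1.83 in the others. Tagln per 100 Acta2 reads overlapped, at 2.05 to 2.98 in the 3 lines and 0.691 to 2.10 in the others. These ratios were chosen with the values known and carry no test.

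**Figure D2:**
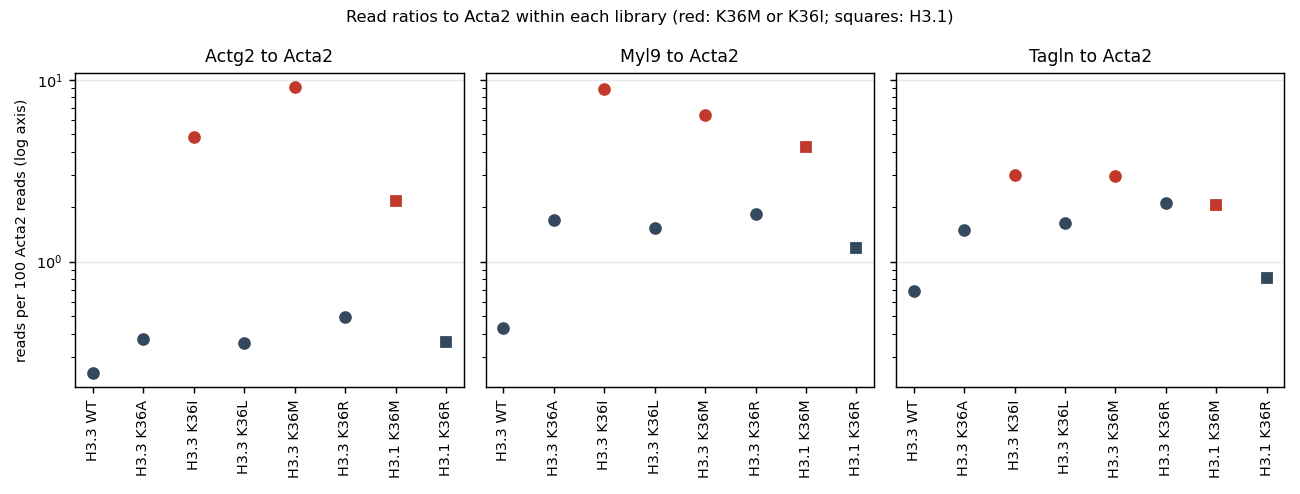
Reads of Actg2, Myl9 and Tagln per 100 Acta2 reads (log axis) in each of the 8 libraries; red marks K36M or K36I and squares mark H3.1. Actg2 lies between 2.14 and 9.07 in the red libraries and between 0.245 and 0.497 in the others, whereas Tagln overlaps.

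Tagln and Cnn1 encode the actin-binding proteins transgelin (SM22 alpha) and calponin 1. Tagln (chr9:45929619-45936058, minus strand) had 240.7 normalised reads with H3.3 WT, 471.2 with K36A, 407.5 with K36I, 313.7 with K36L, 654.7 with K36M and 1420 with K36R. On H3.1 it had 2660 with K36M and 606.8 with K36R. H3.1 K36M and H3.3 K36R stood highest, 1 line of each class, and the class difference of 0.72 (SE 0.61, adjusted p = 0.494) did not pass. Without H3.1 K36M that difference was 0.01 (adjusted p = 0.991). Exons of Tagln overlap those of Pcsk7 and Gm48529 on the other strand. The sources used here do not say whether counting used strand, so how reads within the overlap were assigned cannot be told.

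Cnn1 (chr9:22099216-22109630, plus strand) had few reads in any line: 6, 10, 16, 22, 20 and 13 in H3.3 WT, K36A, K36I, K36L, K36M and K36R. The K36M and K36R lines on H3.1 had 9 and 19. The 95% Poisson interval of the 6 reads in H3.3 WT runs from 2.2 to 13.1, and that of the 22 in K36L from 13.8 to 33.3. Most pairs of libraries therefore cannot be told apart at this depth, and Cnn1 lay below the filter. Without the filter its class difference was 0.04 (SE 0.11, adjusted p = 0.867).

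The myosin members differed from each other in level and in spread. Myl9, the regulatory light chain that myosin light-chain kinase phosphorylates (chr2:156775420-156781658, plus strand), had 150.6 normalised reads with H3.3 WT, 532.5 with K36A, 1214 with K36I, 296.2 with K36L, 1421 with K36M and 1240 with K36R. On H3.1 it had 5524 with K36M and 880.1 with K36R. H3.1 K36M stood apart at the top, and H3.3 K36R lay between H3.3 K36I and H3.3 K36M, so the classes overlap by that 1 library. The class difference of 1.86 (SE 0.63, adjusted p = 0.0897) did not pass. It passed with array weights (1.70, adjusted p = 0.0355) and with histone as a covariate (1.68, adjusted p = 0.0485), and was 1.20 without H3.1 K36M (adjusted p = 0.214).

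Myh11, the smooth muscle myosin heavy chain (chr16:14194535-14291372, minus strand), was low in all lines, at 26.95, 24.9, 38.28, 25.33, 39.13 and 51.28 normalised reads in H3.3 WT, K36A, K36I, K36L, K36M and K36R. The K36M and K36R lines on H3.1 had 55.2 and 42.64. The classes overlap, and the difference was 0.15 (SE 0.12, adjusted p = 0.504). Of its 50-base stretches 0.34% are shared with the non-muscle heavy chains Myh9 and Myh10, which had from 170722 to 221482 and from 4669 to 20980 normalised reads. Whether reads of those genes add to the low values of Myh11 was not tested.

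Des and Synpo2 belong to the lattice that anchors the filaments. Des (desmin, the muscle intermediate filament, chr1:75360329-75368579, plus strand) had 193.3, 145.6, 163.3, 219.2, 183.2 and 104.5 normalised reads in the H3.3 lines in the same order. Its H3.1 values were 156.4 with K36M and 106.1 with K36R. Its 2 lowest libraries were those of K36R, which were high in Acta2. The class difference was 0.11 (SE 0.17, adjusted p = 0.747). Exons of Gm15179 lie on the opposite strand of Des.

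Synpo2 (chr3:123076519-123236149, minus strand) had 14.87 normalised reads with H3.3 WT, 34.48 with K36A, 124.2 with K36I, 17.54 with K36L, 169.9 with K36M and 40.83 with K36R. On H3.1 it had 293.1 with K36M and 34.99 with K36R. The lowest of the 3 K36M and K36I libraries, at 146 reads with a 95% Poisson interval from 123.3 to 171.7, lay above the highest of the others, at 43 reads (31.1 to 57.9). The class difference was 1.32 (SE 0.19, adjusted p = 0.00347), and 1.097 to 1.505 with any 1 library left out. On the log2 scale of recovered normalised reads plus 1, which compresses low values less, it was 2.75 (adjusted p = 0.00476). Synpo2 passed the filter on low values through the K36M and K36I lines alone, since its mean in the others was below it, so a tested Synpo2 had to differ in this direction. Without the filter its difference was the same 1.32, and with the filter set at 2 above the lowest value it was not tested.

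The regulators differed widely in level. Srf (chr17:46548329-46556175, minus strand) had 3781, 3803, 3164, 3005, 4025 and 3996 normalised reads in the H3.3 lines in the same order. Its H3.1 values were 4944 with K36M and 3697 with K36R. The highest library exceeded the lowest by a ratio of 1.65, the smallest such ratio of the 9 genes with reads in all libraries, and the class difference was 0.13 (SE 0.14, adjusted p = 0.630). It turned to -0.03 without H3.1 K36M and -0.02 over the H3.3 lines alone. Myocd, which encodes myocardin (chr11:65176561-65269989, minus strand), had 2 reads in H3.3 K36I and 0 in the other 7 libraries. The limit used here for a count of 0 is 3 reads, or 4.68e-06% to 6.60e-06% of those 7 libraries, and no fold is given. The two-sided 95% Poisson interval drawn in the plot of levels ends at 3.69 reads for a count of 0.

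**Figure D3:**
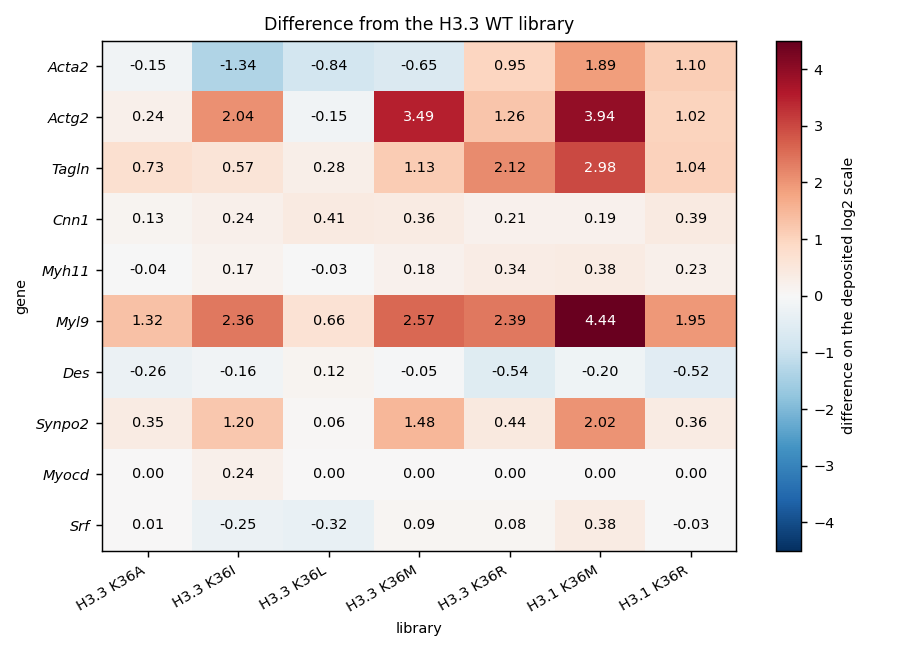
Difference of each of the 10 genes from the H3.3 WT library (rows) in the 7 mutant libraries (columns) on the deposited log2 scale, with the colour running from blue (lower) to red (higher). Actg2 and Myl9 in H3.1 K36M hold the largest values, 3.94 and 4.44, and all 7 columns share the 1 WT library.

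Per kilobase of exon, the scale on which genes can be compared with each other, the mean over the 8 libraries was 22397 normalised reads for Acta2. Srf (1314), Myl9 (1211), Actg2 (508) and Tagln (426) came next, then Des (42.3), Synpo2 (6.97), Cnn1 (5.22), Myh11 (5) and Myocd (0.0331). Ranges over libraries separate Acta2 (6221 to 59142) from all others. The ranges of Srf (1039 to 1709), Myl9 (130 to 4754), Actg2 (44.4 to 1788) and Tagln (121 to 1338) overlap. That of Des (27.8 to 58.4) overlaps the range of Actg2 alone. Those of Synpo2 (1.14 to 22.4), Cnn1 (2.04 to 7.83) and Myh11 (3.28 to 7.26) overlap each other. The ratio of the highest to the lowest library was 40.2 for Actg2, 36.7 for Myl9, 19.7 for Synpo2, 11.1 for Tagln and 9.51 for Acta2, and 3.84 or less for Cnn1, Myh11, Des and Srf. Both smooth muscle actins were thus among the 5 genes that varied most.

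As a set, the 8 tested genes had a median class difference of 0.43, against -0.01 for all genes tested. In 2 of the 8, Actg2 and Synpo2, the classes did not overlap, as was so for 21.5% of all genes tested. Synpo2 entered the test only through its high level in the K36M and K36I lines, so these counts and the median describe the 8 genes and support nothing further. At an unadjusted p under 0.05, 3 of the 8 and 4016 of the 14215 genes tested stood in the class comparison. H3.1 K36M was the highest of the 8 libraries for 7 of the 8 genes, Des being the exception, and for 20.4% of all genes tested. The 7 include Synpo2, with the filter limit given above. They also include Myh11, at 55.2 normalised reads (Poisson interval 39.78 to 74.62) against 51.28 in H3.3 K36R (38.52 to 66.91), where the intervals overlap. The count of 7 is therefore a description and is not read against that share. H3.1 K36M also had the fewest reads, and the part of its depth in these levels was not tested.

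**Figure D4:**
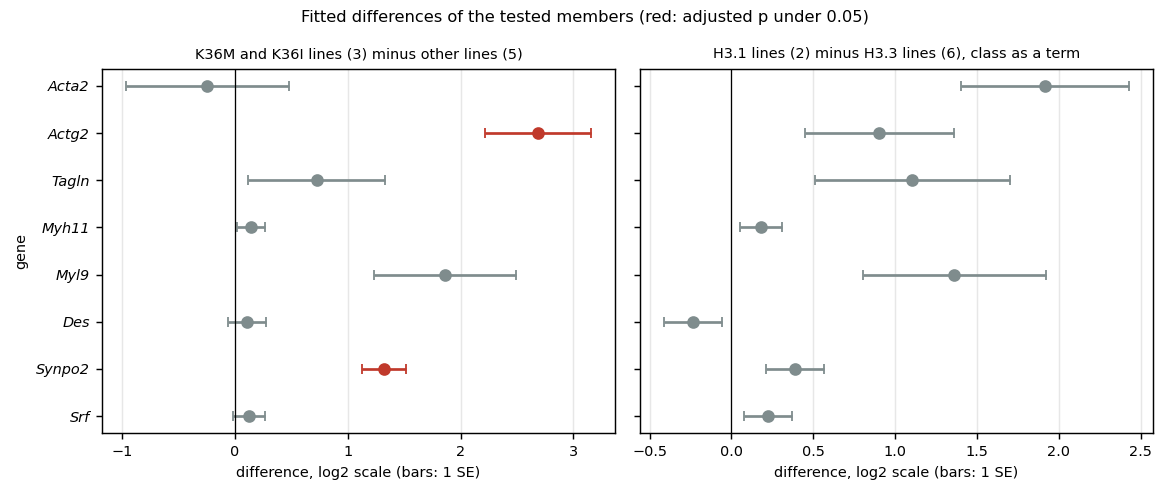
Fitted differences with 1 SE for the 8 tested genes, K36M and K36I lines minus the other lines (left) and H3.1 minus H3.3 lines with class as a term (right), on the deposited log2 scale; red marks adjusted p under 0.05. On the left Actg2 (2.69) and Synpo2 (1.32) are red, and on the right none is, Acta2 (1.92) lying farthest from 0.

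Between histones, none of the 8 genes passed in either direction, where 5.65% of all genes tested were higher and 5.37% lower in H3.1 (limma). At an unadjusted p under 0.05, 2 of the 8 and 4326 of the 14215 genes tested stood in this comparison. Acta2 came closest, at 102257 ± 39060 normalised reads in the H3.1 lines (SD, n = 2) against 31494 ± 19326 in the H3.3 lines (SD, n = 6), a ratio of 3.25. The groups do not overlap, with 74638 in the lowest H3.1 line and 67598 in the highest H3.3 line. The share of all genes tested that separate in this way was not counted. Within K36M, H3.1 exceeded H3.3 by 2.55, and within K36R by 0.14, each from 1 library a side. The difference with class as a term was 1.92 (SE 0.51, adjusted p = 0.0509). That value stood at the threshold and crossed it under 3 alternatives: the filter at 2 above the lowest value (adjusted p = 0.0462), without H3.3 K36R (0.0185) and without H3.1 K36R (0.0427). The last of these leaves H3.1 K36M, the library with the most Acta2, as the only H3.1 line, assumed to vary like the other lines. With H3.1 K36R as the only H3.1 line the difference was 1.11 (adjusted p = 0.341), under the same assumption.

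Myl9 differed by 1.36 between histones (SE 0.56, adjusted p = 0.146), Tagln by 1.10 (SE 0.60, adjusted p = 0.251) and Actg2 by 0.90 (SE 0.45, adjusted p = 0.219). Without H3.3 K36R, the H3.3 line with the most Acta2, Tagln and Myl9 passed as well, at 1.37 (adjusted p = 0.0452) and 1.61 (adjusted p = 0.0275). Myh11 (0.18), Synpo2 (0.39) and Srf (0.22) lay above 0 and Des (-0.24) below it. The median over the 8 was 0.65, against 0.0 for all genes tested. H3.1 held K36M and K36R alone, so the histones were also compared over the K36M and K36R libraries only. There Acta2 differed by 1.345 (limma, adjusted p = 0.44), Myl9 by 0.714, Tagln by 0.38 and Actg2 by 0.105. In that smaller fit 12 of all genes tested passed, and 0 of the contractile genes.

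The class difference itself was compared between the histones. Acta2 differed by 0.80 in H3.1 (1 line against 1) and by -0.99 in H3.3 (2 lines against 4), and Tagln by 1.94 and 0.06. Neither passed the test of the interaction (1.79, SE 0.87, adjusted p = 0.507 for Acta2 and 1.88, SE 1.07, adjusted p = 0.566 for Tagln). Actg2 (2.92 and 2.43) and Synpo2 (1.66 and 1.13) were higher in the class on both histones, and the interactions were 0.49 (SE 0.96) and 0.53 (SE 0.32). For Actg2 the direction turned without H3.3 K36I, to -0.23. By limma 0% of the 14215 genes passed this test, 1582 did at an unadjusted p under 0.05, and 0 of the 8 contractile genes did either way.

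Single libraries were also set against H3.3 WT, with no test, since each side has 1 library and all 7 comparisons share WT. In H3.3 K36A, where 2.08% of all genes differed by at least 1, Myl9 alone was higher (1.32). In H3.3 K36I (7.63% of genes), Actg2 (2.04), Myl9 (2.36) and Synpo2 (1.20) were higher and Acta2 was lower (-1.34). In H3.3 K36L (1.03%), 0 of the 8 differed by 1, Acta2 being at -0.84. In H3.3 K36M (8.69%), Actg2 (3.49), Tagln (1.13), Myl9 (2.57) and Synpo2 (1.48) were higher, with Acta2 at -0.65.

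The K36R and H3.1 lines differed from these in Acta2. In H3.3 K36R (1.76% of genes), Actg2 (1.26), Tagln (2.12) and Myl9 (2.39) were higher, with Acta2 at 0.95. In H3.1 K36R (3.33%), Acta2 (1.10), Actg2 (1.02), Tagln (1.04) and Myl9 (1.95) were higher. In H3.1 K36M (10.3%), those 4 genes and Synpo2 were higher, at 1.89, 3.94, 2.98, 4.44 and 2.02. Thus Acta2 lay below WT in K36A, K36I, K36L and K36M on H3.3 and above it in K36R and both H3.1 lines, whereas Myl9 lay above WT in all 7. Any offset of the single WT library would move all of these values alike.

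K36M was set against K36R on each histone, and the histones against each other within K36M. On H3.3 (7.85% of genes differing by at least 1), Actg2 (2.24) and Synpo2 (1.04) were higher in K36M and Acta2 (-1.61) was lower, while Myl9 differed by 0.18. On H3.1 (7.02%), Actg2 (2.92), Tagln (1.94), Myl9 (2.50) and Synpo2 (1.66) were higher in K36M, with Acta2 at 0.80. H3.1 K36M exceeded H3.3 K36M (5.02% of genes) in Acta2 (2.55), Tagln (1.85) and Myl9 (1.87), and by less than 1 in Actg2 (0.45) and Synpo2 (0.54). Of the 5 genes that varied most, the 2 that rose with the class were those in which the K36M lines on both histones were closest. H3.3 K36M had 3.04 times the Actg2 reads of H3.3 K36I and 1.17 times its Myl9 reads.

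Profiles over the 8 libraries were compared by the root mean square distance between log2 values, each gene centred on its own mean. Among the 5 genes that varied most, the closest pairs were Tagln with Myl9 (0.61), Actg2 with Myl9 (0.65) and Acta2 with Tagln (0.67). The 2 actins were the farthest pair of all 8 genes, at 1.53. The genes nearest to Actg2 among all tested were Hgf, the ligand of the MET receptor (0.46), the adhesion molecule gene Selp (0.51) and Nlrc5, a regulator of MHC class I genes (0.53), against a spread of Actg2 about its own mean of 1.46. Synpo2 lay nearest to S100a3 (0.13), Mgat4b (0.14) and Specc1 (0.15), and Myl9 to Selp (0.44) and Bmper (0.46).

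Acta2 lay nearest to Ak4 (0.36), Rassf6 (0.37) and C1qtnf5 (0.37), and Tagln to Tmc7 (0.36), Calcrl (0.40) and Lims2 (0.41). For the genes that varied little, the nearest were Trim3, Kif5b and Sike1 for Myh11 (0.045 to 0.056), Pim3, Ezh1 and Tomm7 for Des (0.10 for each) and Atp6v1h, Nbeal1 and Akt1 for Srf (0.06 to 0.075). None of the nearest 3 of any of the 8 genes was itself one of the 10. These distances describe 8 libraries that share a cell line, and many genes that vary little lie close to each other.

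Other actins and actin-binding proteins of smooth muscle were read from a list of 30 genes, of which 26 were tested. In the class comparison 4 rose and 2 fell, beside 6.45% and 6.82% of all genes tested, so the number that fell is near the background. The median was 0.20. Csrp2, a LIM protein of smooth muscle, rose by 1.07 (SE 0.26, adjusted p = 0.0299) and stood at 7389 ± 2450 normalised reads (SD, n = 3) against 3387 ± 857.4 (SD, n = 5). Tpm2, or beta tropomyosin, rose by 0.98 (SE 0.14, adjusted p = 0.00360), Cnn2, a calponin of many cell types, by 0.92 (SE 0.15, adjusted p = 0.00496) and Pdlim5 by 0.47. Csrp1, the relative of Csrp2, fell by 0.79 (SE 0.21, adjusted p = 0.0436), and Smtn, which encodes smoothelin, by 0.43 (SE 0.09, adjusted p = 0.0137). The non-muscle actins Actb (0.00, SE 0.13) and Actg1 (0.13, SE 0.13) did not pass, and Lmod1, which encodes the leiomodin of smooth muscle, had a difference of 0.56 (SE 0.30, adjusted p = 0.256).

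Between histones 4 of these 26 rose and 2 fell in H3.1, beside 5.65% and 5.37% of all genes tested, the latter number again near the background. They included Tagln2 (0.83, SE 0.15), Synm, an intermediate filament gene (0.82, SE 0.19), and Tpm1, the alpha tropomyosin gene (0.76, SE 0.16), whereas Csrp2 fell by 0.74 (SE 0.16). Of 12 tested genes of the thick filament and the kinase and phosphatase that control it, 0 rose and 1 fell with the class (median -0.01), near the 6.82% of all genes that fell. It was Myh10, a non-muscle myosin heavy chain, which fell by 1.34 (SE 0.22, adjusted p = 0.00578) and stood at 6977 ± 2258 normalised reads (SD, n = 3) against 17494 ± 3222 (SD, n = 5). In H3.1 the myosin phosphatase subunit gene Ppp1r12b rose by 1.05 (SE 0.14, adjusted p = 0.00587) and the kinase gene Rock2 fell by 0.47 (SE 0.08, adjusted p = 0.0139). This 1 gene each way of the 12 is near the 5.65% and 5.37% of all genes tested. Mylk, the light-chain kinase gene, differed by 0.38 with the class (SE 0.38, adjusted p = 0.575).

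Of 21 tested SRF cofactors and regulators of smooth muscle transcription, 4 rose and 2 fell with the class (median 0.08), beside 6.45% and 6.82% of all genes tested, so the number that fell is near the background. Mef2c, a muscle transcription factor, fell by 2.22 (SE 0.51, adjusted p = 0.0225), with 108.1 ± 27.5 normalised reads (SD, n = 3) against 1060 ± 684.3 (SD, n = 5). Klf4, known as a repressor of contractile genes, fell by 1.08 (SE 0.12, adjusted p = 0.00106). Fhl2, a LIM cofactor that binds SRF, rose by 1.41 (SE 0.22, adjusted p = 0.00496), and Smad3, a mediator of TGF-beta signals, by 1.02 (SE 0.17, adjusted p = 0.00709). Rbpj, the DNA-binding factor of the Notch pathway, rose by 0.94 and Klf5 by 0.66. The cofactor genes Mkl1 (0.08, SE 0.12, adjusted p = 0.705) and Mkl2 (0.16, SE 0.10, adjusted p = 0.362) did not pass. In H3.1 the mesenchymal factor Foxf1 rose by 0.82 (SE 0.17) and was the only gene of this list to pass. That number is near the 5.65% of all genes tested that were higher in H3.1.

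Of 17 tested myofibroblast and fibroblast activation genes, 1 rose and 2 fell with the class (median -0.26), both near the 6.45% and 6.82% of all genes tested. The matricellular gene Thbs1 fell by 1.97 (SE 0.55, adjusted p = 0.0478) and Fn1, which encodes fibronectin, by 1.01 (SE 0.21, adjusted p = 0.0167). Tgfbr2, a receptor of TGF-beta, rose by 0.80 (SE 0.20, adjusted p = 0.0306). In H3.1, 1 of the 17 rose, near the 5.65% of all genes tested, and 0 fell. It was Postn, which encodes periostin and rose by 3.62 (SE 0.60, adjusted p = 0.0131), with 33497 ± 2788 normalised reads (SD, n = 2) against 3154 ± 2266 (SD, n = 6). Among the H3.3 lines Postn stood at 7430 in K36R, against 1055 to 3649 in the others. Pdlim5, Smtn, Rbpj and Klf5, and the members of these lists that did not pass, were named after their values were seen.

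**Figure D5:**
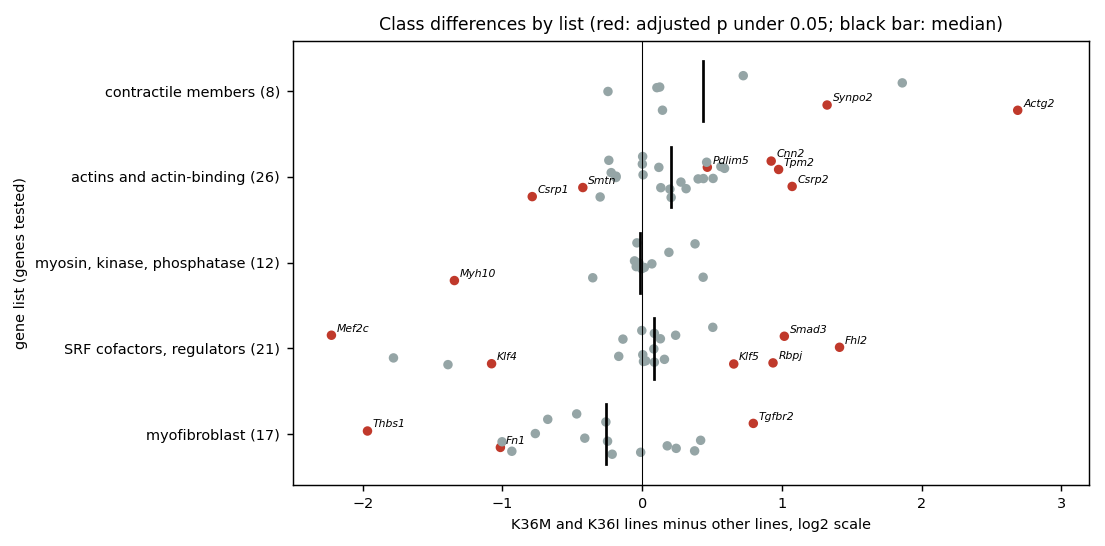
Class differences (K36M and K36I lines minus other lines, deposited log2 scale) of the 8 tested contractile genes and of 4 lists of related genes, 1 point per gene, with red for adjusted p under 0.05 and a black bar at each list's median. The medians are 0.43, 0.20, -0.01, 0.08 and -0.26 from top to bottom, and called genes of the lists lie on both sides of 0 except in the myosin list.

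Markers of other cell types were read in the same libraries. Of the skeletal muscle list, Myf5 and Myf6 were at 0 in all libraries and Myod1 and Myog had at most 2 reads. Its summed level was 281.5 to 404.8 normalised reads in the K36M and K36I lines and 784.5 to 1307 in the others, most of it Tnni1 and Ttn. Of the cardiac list, Nkx2-5 had at most 2 reads and Myh6 at most 7, and the sums were 828.4 to 996.2 and 825.5 to 1906. Of the pericyte list, which shares a perivascular site with smooth muscle, Kcnj8 and Abcc9 had at most 8 and 6 reads, and the sums were 33211 to 48879 and 41973 to 59519. The pericyte marker Rgs5 had 51.5 normalised reads with K36M on H3.3, 76.2 with that substitution on H3.1 and 5.10 with K36I. It ran from 0 (H3.3 WT) to 12 (K36R on H3.1) among the other lines. Most of the pericyte sum was Cspg4 and Pdgfrb, which went the other way with K36M on H3.3. At 16962 and 13388 both had their lowest values of all libraries there. With K36M on H3.1 these 2 genes stood at 27012 and 19306.

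The leukocyte list summed to 174.6 to 242.5 normalised reads in the K36M and K36I lines and 100.6 to 153 in the others, nearly all of it Cd68, with Cd3e at 0 and Ptprc at most 8 reads. The endothelial list summed to 325.4 to 350.9 and 1568 to 3265, nearly all of it Tek, with Kdr at most 8 reads and Pecam1 at most 21. The epithelial list summed to 700.5 to 1144 and 293.4 to 795, mostly Cdh1, with Epcam at most 2 reads. The chondrocyte list summed to 9283 to 13758 in the K36M and K36I lines and 33165 to 84576 in the others, mostly Col2a1. In the class comparison 2 of its 2 tested genes fell, beside 6.82% of all genes tested. Of the other marker lists, 1 of 2 tested skeletal muscle genes and 1 of 1 endothelial fell. In the stromal list 1 of 8 rose, beside 6.45% of all genes tested, and no gene of the remaining lists passed. The adipocyte list summed to 659.8 to 1556 and 1135 to 2243, with Plin1 at 0, and the osteoblast list to at most 15.77 and 38.31. The stromal list, which holds markers of the labelled cell type, summed to 292520 to 338140 and 314542 to 410310, with Vim and Col1a1 high in all 8. The classes did not overlap in the leukocyte sums, which were higher in the K36M and K36I lines. Nor did they in the skeletal muscle, endothelial and chondrocyte sums, which were lower there. Those sums are mostly Cd68, Tnni1 and Ttn, Tek, and Col2a1 in turn. The classes did not overlap in 21.5% of all genes tested either. The part of these lists in the differences of Actg2 and Synpo2 was not tested.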

How the data were processed

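The authors deposited log2 values. Per the submitters' processing notes the tools were Trimmomatic 0.32, STAR 2.3.0e, featureCounts 1.4.4 and DESeq2 on mm10, and the authors deposited variance-stabilised reads per gene for 31276 genes in 8 libraries. The annotation, the settings and any use of strand were not given in the sources used here. A value of 5.95, the lowest, stands for 0 reads. Inverted, 100% of the values came out as whole reads, with a tolerance of 0.001, and normalised reads are these divided by the library's size factor. A count of 0 allows up to 3 reads, and intervals (95%, Poisson) cover counting error only.

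The 14215 genes with a mean of 1 or more over the lowest value (31 normalised reads) were tested, and 17061 were left out. Tests were two-sided, with the trend option of limma 3.58.1 (R 4.3.3), Benjamini-Hochberg adjusted over all genes tested, at 0.05. The class comparison had no covariate, and the histone comparison had class as a term. The fits were also run on simulated counts with the same fixed dispersion for every gene, which does not test the spread between these lines. Nothing in the labels gives separate cultures of a line, so p-values rest on the spread between these lines alone, which may be technical in part.

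The members, the lists and the split by class were chosen with earlier results of these data known. The rule named the 10 genes, up to 4 called genes of each list and comparison, and the 3 genes nearest to each tested member, of which 1 is not reported here. Coordinates and exons are from GENCODE M21 on GRCm38, and promoters from RefSeq (GRCm38.p6). Alternatives were other filters, scalings and weights, leaving out each library, histone as a covariate, and fits within H3.3 or within K36M and K36R.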

Additional observations from a re-analysis of the deposited data

Results flagged for a closer look

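Among the 5 lines without K36M or K36I, Srf in H3.3 K36L stood below the rest, with a gap to the next library of 0.726 of the whole range. Chance flags about 1 group of 20.

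For 3 of the 8 tested genes K36M minus K36R had opposite signs on the 2 histones, each from 1 library a side. The difference between those 4 libraries was not tested. Acta2 was -1.61 on H3.3 and 0.80 on H3.1, Tagln was -0.99 and 1.94, and Myh11 was -0.15 and 0.15. The interaction of class and histone over all 8 libraries had adjusted p = 0.507, 0.566 and 0.973 (limma). Cnn1, which lay below the filter with few reads, also had opposite signs, at 0.15 on H3.3 and -0.20 on H3.1.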

How the results depend on the processing

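Over 16 alternatives Actg2 kept its class call in all, and Synpo2 in the 15 in which it was tested. Synpo2 passed the main filter through the K36M and K36I lines alone. Its direction under that filter was therefore set in advance, and its kept calls there add no support. With the filter at 2 above the lowest value 1 contractile gene was called higher by class, Synpo2 being untested. Genes called by class numbered 1887, and 4074 with array weights, 2959 with histone as a covariate and 1021 to 2084 with a library left out (1021 without H3.3 K36M, 1211 without H3.3 WT, 1245 without H3.3 K36I). The split of 917 higher and 970 lower became 1156 and 805 with library medians set equal, and 1540 and 990 without the filter. Genes called by histone numbered 1567, and 414 with array weights, 12 over the K36M and K36R libraries alone and 183 to 1934 with a library left out (183 without H3.1 K36M, 574 without H3.3 K36I, 769 without H3.3 K36M, 791 without H3.3 WT, 836 without H3.3 K36L). The count of contractile genes higher in H3.1 was 1 with the filter at 2, and 0 to 3 with a library left out (3 without H3.3 K36R, 1 without H3.1 K36R). Without the filter the interaction called 798 genes, 487 higher and 311 lower, against 0, and 0 with a library left out. Directions turned for Acta2 by class (-1.21 to 0.41 with a library left out), Srf by class (-0.027 to 0.285, and -0.022 over H3.3 alone), and the interactions of Actg2 (-0.23 to 1.22) and Myh11 (-0.048 to 0.076, turning without H3.3 K36R). On log2 of recovered normalised reads plus 1, genes differing from WT by at least 1 numbered 768 in H3.3 K36A, 1762 in K36I, 515 in K36L and 717 in K36R. On H3.1 they numbered 2202 with K36M and 1064 with K36R. Contractile genes so differing in K36A numbered 2. The cause was not tested. The interaction could not be fitted without either H3.1 library. No paired analysis was possible because each transgene has 1 library and the labels give no replicate numbers.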
